A study of Homo sapiens with 12 samples.

Results

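The HOX genes were examined in RNA-seq and Ribo-seq counts of 293T4A cells. Members were all genes whose symbol is HOX, a cluster letter from A to D and a number, which gave 39 of the 58735 genes in the count table. The HOXA cluster has 11 of them on chromosome 7, on the - strand (GRCh38). HOXB has 10 on chromosome 17, from 48528526 to 48728750 on the - strand. HOXC has 9 on chromosome 12, from 53938831 to 54056030 on the + strand, and HOXD has 9 on chromosome 2, from 176092721 to 176190907 on the + strand.

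HOX genes encode homeodomain transcription factors that set positional identity along the body axis of the embryo. Within a cluster they lie in the order in which they act, with low paralog numbers used early and towards the head and high numbers late and towards the tail, limbs and urogenital tract. Cultured lines keep a HOX pattern of their own, held by Polycomb (repressive) and Trithorax (activating) chromatin complexes, and HOX proteins bind DNA together with TALE cofactors such as PBX and MEIS.

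293T4A is a human embryonic kidney line (293T) that carries a lentiviral, doxycycline-inducible construct for 4EBP1-4A, a form of the translation repressor 4EBP1 that cannot be phosphorylated at its regulatory sites. Transduced cells had been sorted by GFP. Both groups were the same line and both received cycloheximide shortly before lysis. The control group received DMSO and the treated group doxycycline at 2 mg/mL, for 12 h in the sample labels and 2 h in the text of the series, while the results text of the study names a longer time. Each group had 3 RNA-seq and 3 Ribo-seq libraries. The study calls its replicates biological, but the labels do not say that they were separate cultures, and p-values measure the spread between these libraries, which may in part be technical.

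With DMSO, 51519700 to 57824136 RNA-seq reads per library fell on genes, and with doxycycline 47862104, 45887231 and 21687906. Doxycycline replicate 3 stood apart. Of its count total, 88.4% was in the class aligned to more than 1 place, against 54.9% to 69.9% in the other RNA-seq libraries. Only 5.94% was on genes. Whether a read aligned to more than 1 place enters that total more than once is not given. The tests below were run with and without it. EIF4EBP1, the gene of the induced protein, was at 155.7, 157 and 169.4 CPM with DMSO and 260, 281.3 and 267.3 CPM with doxycycline (CPM, counts set to a common library size by the reads on genes and TMM factors). Of 10 embryonic kidney markers, 9 had at least 10 reads in every RNA-seq library, among them SALL1, SIX2, GATA3, WT1 and LHX1, while PAX8 had at most 2 reads in any of them. Of 9 markers of mature kidney, UMOD and AQP2 were at 0 in every RNA-seq library, and LRP2 (585 to 1538 reads) was the highest. The summed level of the keratinocyte list was 6.08 to 6.72 CPM with DMSO and 3.04 to 5.58 CPM with doxycycline, most of it KRT10, and 5 of its 9 genes had at most 3 reads in every RNA-seq library. The fibroblast list summed to 14.3 to 16.7 CPM with DMSO and 16.1 to 29.5 CPM with doxycycline, led by COL1A1, and the blood list to at most 2.13 CPM in any RNA-seq library. No marker was called with all 6 libraries. Without doxycycline replicate 3, SIX2 was called higher and LUM, a fibroblast gene with 78, 70 and 77 reads against 39 and 42, lower. These were 1 of 9 embryonic kidney genes and 1 of 4 fibroblast genes tested. In that fit 3.40% of all genes tested were called higher and 4.03% lower. The part of the markers in the HOX changes was not tested.

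The sequences that bear on the results are shown first. MicroRNAs of the miR-196 and miR-10 families are encoded inside the HOX clusters and target HOX mRNAs. The capitals mark the seed, bases 2 to 8, which pairs with the target. Both miR-196 members share the seed AGGUAGU and differ at 1 of 22 bases. MIR196A1 (chr17:48632532-48632553, - strand) and MIR196A2 (chr12:53991762-53991783, + strand) give miR-196a-5p, MIR196B (chr7:27169528-27169549, - strand) gives miR-196b-5p, and MIR10A (chr17:48579904-48579926, - strand) gives miR-10a-5p (RefSeq, GRCh38.p14).
miR-196a-5p: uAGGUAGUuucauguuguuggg
miR-196b-5p: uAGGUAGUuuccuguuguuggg
miR-10a-5p: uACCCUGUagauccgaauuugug

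The stretch of the HOXB8 reference transcript most complementary to miR-196a-5p lies 3′ of its coding part, at chr17:48612770-48612791 on the - strand (GRCh38). It is the exact complement at 21 of 22 positions. The capital marks the base that differs, A18G counted from 1 at the 5′ end of the site. That base lies in the stretch opposite the seed, where G faces U, so the site lacks the exact match to the seed. A G facing a U was not counted as complementary.
HOXB8 site: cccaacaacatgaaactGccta

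The letters ACTACCT, which match the miR-196 seed, were found on the sense strand of 10 of the 39 HOX reference transcripts (25.6%) and of 17.1% of the 19831 protein-coding reference transcripts. Among these were HOXA5, HOXA6, HOXA7, HOXA9, HOXB1, HOXB6, HOXB7, HOXB13 and HOXC8. The match to the miR-10 seed, ACAGGGT, was in 6 HOX transcripts (15.4%) and in 18.7% of all, among them HOXA3, HOXB2, HOXB3, HOXB5 and HOXC4. The HOX transcripts were shorter, with a median of 2016 bases against 2894. A match is only a run of letters and says nothing of binding.

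Levels were compared between genes as FPKM, the CPM of a gene divided by its exon length in kilobases, with the union of all annotated exons as the length. In DMSO-treated cells the HOXA cluster summed to 148.9 ± 9.53 FPKM (SD, n = 3 libraries), which was 44.1% of the HOX total. HOXD summed to 81.1 ± 1.12 FPKM (24.1%), HOXB to 76.8 ± 2.03 FPKM (22.8%) and HOXC to 30.3 ± 1.43 FPKM (8.99%). The ranges of HOXD and HOXB did not overlap between DMSO libraries, but the sums depend on the length used for each gene: 25 of the 39 genes share exon bases with another gene, 16 on the same strand and 20 on the other. HOX genes together took 0.0775% to 0.105% of the reads on genes in the 6 RNA-seq libraries.

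**Figure D1:**
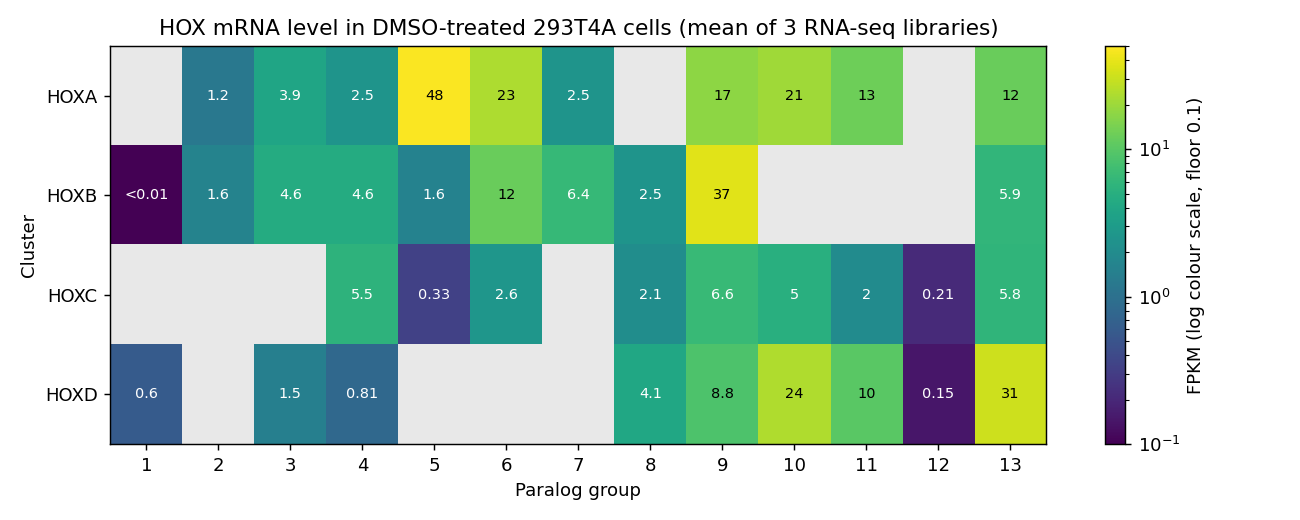
Mean FPKM in the 3 DMSO RNA-seq libraries for each HOX gene, by cluster (rows) and paralog group (columns), on a log colour scale; a grey cell holds no gene or one not shown. The highest cells are HOXA5, HOXB9 and HOXD13, and the lowest are HOXB1 and both members of group 12.

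By position, the 16 genes of paralog groups 9 to 13 held 59.4% ± 0.827 (SD, n = 3) of the HOX level, the 15 genes of groups 4 to 8 held 35.3% ± 0.937, and the 8 genes of groups 1 to 3 held 5.30% ± 0.113. The clusters differed in this. Groups 9 to 13 made up 91.5% of the HOXD level, 65.0% of HOXC and 56.4% of HOXB, but 42.2% of HOXA, where groups 4 to 8 made up 51.4%.

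The typical HOX gene was moderately expressed. The median over the 39 genes was 4.57 FPKM against 2.04 FPKM over 19831 protein-coding genes, and 28 HOX genes were above the latter. At least 10 reads in every DMSO library were found for 38 genes, at least 1 FPKM for 33, at least 10 FPKM for 11 and at least 20 FPKM for 6. Without HOXB1, the highest and lowest members differed 330-fold.

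HOXA5, a regulator of lung and thoracic development, was the highest HOX gene, with 43.9, 49.1 and 51.3 FPKM in DMSO replicates 1, 2 and 3 (4127, 4431 and 4299 reads). It exceeded 97.4% of protein-coding genes. HOXA5 shares no exon bases with another gene.

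HOXB9, which patterns the thoracic skeleton, followed with 35.9, 37.7 and 38.6 FPKM (5066, 5125 and 4861 reads), the largest read count of any HOX gene. HOXD13, needed for digits and the urogenital tract, had 30.5, 30.7 and 32.0 FPKM (4024, 3890 and 3768 reads). With this length the leading members kept their order in all DMSO libraries, since neither the ranges of HOXA5 and HOXB9 nor those of HOXB9 and HOXD13 overlapped. Per unshared base HOXA6 (39.0 FPKM) passed HOXB9, and with reference transcripts HOXD10 (33.3 FPKM) passed HOXD13.

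HOXD10 (23.9 FPKM), HOXA6 (23.4 FPKM) and HOXA10 (20.7 FPKM) came next, and neighbours among them overlapped between libraries. HOXA6 shares 505 exon bases with the antisense gene HOXA-AS3. HOXD10 shares 452 bases with HOXD11. Below them were HOXA9 (17.2 FPKM), a gene known from leukaemia, HOXA11 (12.8 FPKM), which acts with HOXD11 in kidney development, HOXB6 (12.2 FPKM), HOXA13 (12.0 FPKM) and HOXD11 (10.3 FPKM). In the whole order of levels, 21 of 38 neighbouring pairs had DMSO ranges that overlapped.

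HOXC was the cluster with the lowest levels. Its highest member HOXC9 had 6.56, 6.97 and 6.41 FPKM (597, 610 and 520 reads), followed by HOXC13 (5.78 FPKM), a hair follicle regulator, HOXC4 (5.51 FPKM), HOXC10 (5.03 FPKM), HOXC6 (2.65 FPKM), HOXC8 (2.12 FPKM) and HOXC11 (2.02 FPKM). The ranges of HOXC9 and of HOXB7 (6.43 FPKM), its next neighbour in the order, overlapped. HOXC4 and HOXC6 share 484 exon bases. With the length of the reference transcript, HOXC4 stood above HOXC9, at 8.93 FPKM. HOXC5 had 0.334 FPKM, and only 32.7% of its exon bases are its own, so its few reads are uncertain.

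The order within a paralog group was not the same across clusters. In group 5, HOXA5 was at 48.1 FPKM, HOXB5 at 1.58 FPKM and HOXC5 at 0.334 FPKM. In group 9, HOXB9 (37.4 FPKM) was above HOXA9 (17.2 FPKM), HOXD9 (8.84 FPKM) and HOXC9 (6.65 FPKM). In group 13, HOXD13 (31.1 FPKM) was above HOXA13 (12.0 FPKM), while HOXB13 (5.93 FPKM) and HOXC13 (5.78 FPKM) overlapped between libraries.

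Group 12 was nearly silent in both clusters that hold it. HOXC12 had 30, 32 and 43 reads (0.208 FPKM) and HOXD12 had 19, 15 and 24 reads (0.146 FPKM) in DMSO replicates 1 to 3. The neighbours of HOXD12 on the chromosome, HOXD11 and HOXD13, were at 10.3 and 31.1 FPKM, and those of HOXC12, HOXC11 and HOXC13, at 2.02 and 5.78 FPKM.

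With the union of exons as length, no anterior gene was above the HOX median of 4.57 FPKM. In groups 1 to 3, HOXB3 was at 4.57 FPKM and HOXA3 at 3.90 FPKM, with HOXB2 at 1.62, HOXD3 at 1.46, HOXA2 at 1.20 and HOXD1 at 0.596 FPKM. With the length of the reference transcript, HOXB3 was at 10.3 FPKM and HOXA3 at 5.55 FPKM. HOXB1, which marks part of the hindbrain, had 0, 0 and 1 read with DMSO and 0, 1 and 1 with doxycycline. These counts are at or under the 3 reads that a count of 0 allows, counting error only. HOXB1 was the one HOX gene not tested.

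The remaining genes of the middle groups were HOXB7 (6.43 FPKM), HOXB4 (4.59 FPKM), HOXD8 (4.06 FPKM), HOXA4 (2.52 FPKM), HOXB8 (2.48 FPKM), HOXA7 (2.48 FPKM) and HOXD4 (0.807 FPKM). HOXA7 shares 1507 exon bases with HOXA-AS3 and was at 6.61 FPKM per unshared base, so its level is uncertain without knowledge of strand.

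The 250 bases before the start are shown for HOXD13, its nearly silent neighbour HOXD12, and HOXB1, the lowest HOX gene. Capitals mark CG, the dinucleotide that is methylated in vertebrates. They cover chr2:176092471-176092720 and chr2:176099545-176099794 on the + strand and chr17:48531012-48531261 on the - strand (RefSeq, GRCh38.p14).
HOXD13: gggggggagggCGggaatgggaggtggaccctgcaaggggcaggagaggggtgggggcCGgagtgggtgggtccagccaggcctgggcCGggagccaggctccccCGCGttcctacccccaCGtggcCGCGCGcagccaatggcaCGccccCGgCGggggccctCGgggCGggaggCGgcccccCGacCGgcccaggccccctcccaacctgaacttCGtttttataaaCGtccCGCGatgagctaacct
HOXD12: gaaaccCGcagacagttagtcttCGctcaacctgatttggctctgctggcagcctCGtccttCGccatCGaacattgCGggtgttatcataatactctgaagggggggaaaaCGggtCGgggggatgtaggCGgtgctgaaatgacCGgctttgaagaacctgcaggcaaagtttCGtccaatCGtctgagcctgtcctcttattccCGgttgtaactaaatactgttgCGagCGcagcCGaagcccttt
HOXB1: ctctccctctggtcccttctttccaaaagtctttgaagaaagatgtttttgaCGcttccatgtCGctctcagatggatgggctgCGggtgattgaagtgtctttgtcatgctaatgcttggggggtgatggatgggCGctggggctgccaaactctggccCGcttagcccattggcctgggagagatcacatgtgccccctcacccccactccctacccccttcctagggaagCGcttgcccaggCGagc

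The HOXD13 stretch holds 21 CG, that of HOXD12 holds 16 and that of HOXB1 holds 7, against a median of 11 over 35116 promoters, of which 93.9% hold at least 1. Promoter sequences were at hand for 20 HOX genes, with 27 starts, whose counts ran from 0 (at 1 of 7 HOXA3 starts) to 40 (HOXA13) with a median of 19. HOXD4 (0.807 FPKM) had 4 and HOXD1 (0.596 FPKM) had 31, so a low level did not go with a low count in every gene.

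The next comparison asks whether HOX mRNA changed when 4EBP1-4A was induced. With all 6 RNA-seq libraries, no HOX gene passed an adjusted p of 0.05 in either direction. No gene of the 20552 tested passed in this fit (0% in each direction), and HOX genes were no exception (edgeR quasi-likelihood test, Benjamini-Hochberg adjustment). EIF4EBP1, the gene of the induced protein, did not pass either, with a log2 fold change of 0.75 ± 0.10 (SE, adjusted p = 0.326). Without doxycycline replicate 3 its adjusted p was 1.2e-05 in the same test. A lack of calls with all 6 libraries therefore does not show a lack of change. With all 6 libraries, DESeq2's Wald test also called none of the 38 HOX genes tested, and 1 gene higher and 2 lower of all 20552. At an unadjusted p under 0.05, 4 HOX genes were higher (10.5%, against 9.58% of all genes) and 0 were lower (against 4.13% of all genes). The 4 were HOXC8, HOXB5, HOXC11 and HOXD3. In bulk RNA, fewer cells that express a gene and less RNA per cell cannot be told apart.

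The median log2 fold change of the 38 genes was 0.09, against -0.04 over all genes tested, and it ran from -0.37 to 0.57. It was positive for 26 genes, but for 32 when libraries were scaled by their totals and for 21 without doxycycline replicate 3. Library totals shifted the median of all genes by 0.13. Relative to the median of all genes, the HOX median was 0.13 higher with TMM factors, 0.14 higher with library totals and 0.04 higher without doxycycline replicate 3.

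**Figure D2:**
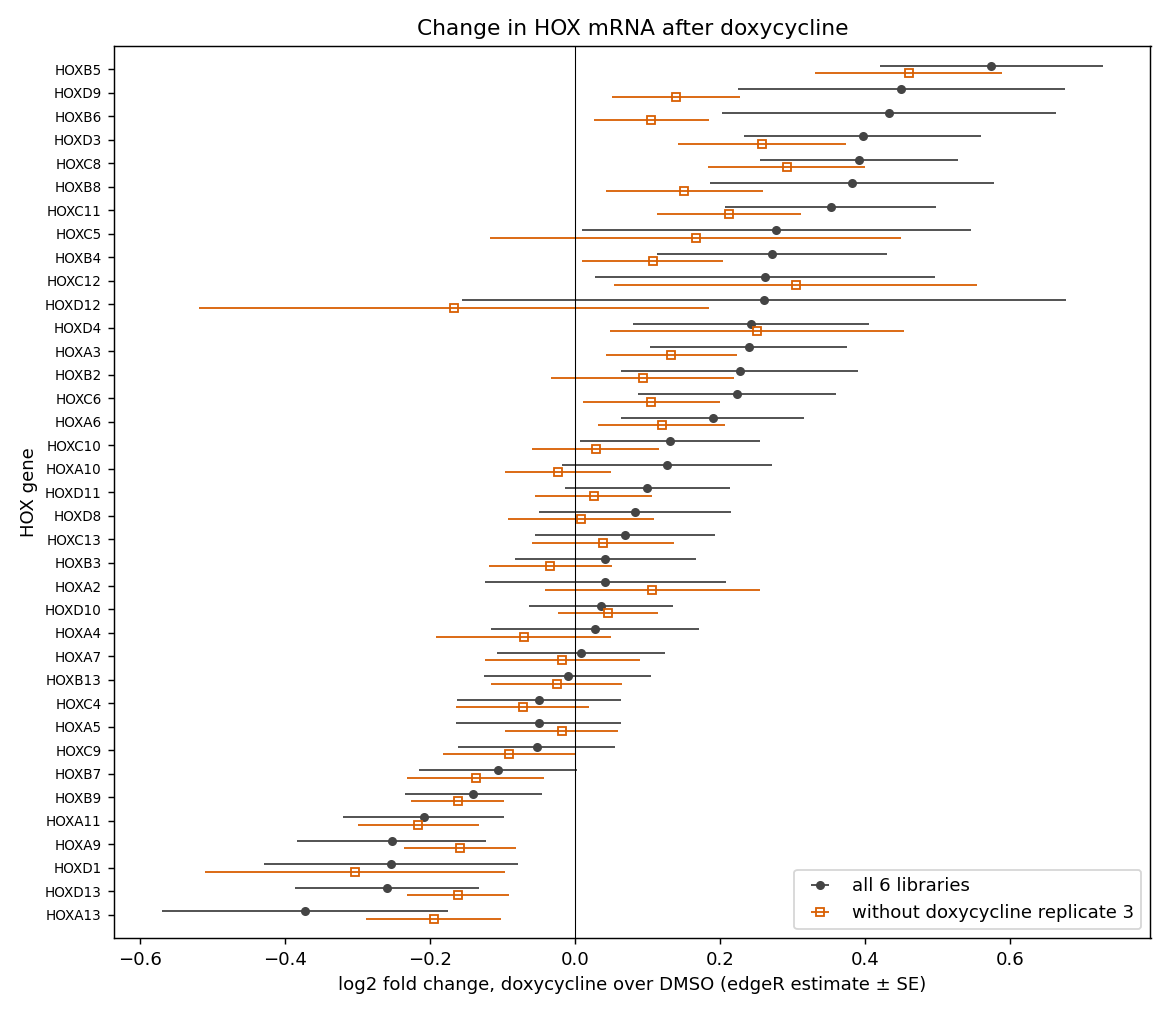
Log2 fold change with its standard error (edgeR, doxycycline over DMSO) for the HOX genes tested and shown, with all 6 libraries (filled circles) and without doxycycline replicate 3 (open squares). HOXB5 has the highest estimate in both, while HOXD9 and HOXB6 move from 0.45 and 0.43 to 0.14 and 0.11 when that library is left out.

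HOXB5, which patterns the shoulder and the enteric nerves, had the largest estimate. It had 145, 168 and 145 reads with DMSO and 183, 195 and 130 with doxycycline, or 1.43, 1.72 and 1.60 against 2.10, 2.27 and 2.76 FPKM. All doxycycline libraries were above all DMSO libraries. The log2 fold change was 0.57 ± 0.15 (SE), with an adjusted p of 0.326 with all 6 libraries (edgeR). Without doxycycline replicate 3, HOXB5 rose by 0.46 ± 0.13 (SE) on the log2 scale, with an adjusted p of 0.0384. It was the one HOX gene called higher there, against 3.40% of the 20459 genes tested, and none was called lower, against 4.03%. With library totals that fit called 1442 genes higher and 339 lower, in place of 696 and 825, and HOXB5 was still the one HOX gene called.

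HOXD9 had 870, 948 and 760 reads with DMSO and 835, 866 and 799 with doxycycline, or 8.52, 9.65 and 8.34 against 9.50, 9.99 and 16.8 FPKM. Doxycycline replicate 1 was within the DMSO range, replicate 2 just above it and replicate 3 far above it. The log2 fold change was 0.45 ± 0.23 (SE, adjusted p = 0.326, edgeR) with all libraries and 0.14 ± 0.09 (SE) without that library.

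HOXB6 had 12.1, 12.8 and 11.7 FPKM against 12.3, 13.9 and 23.2 FPKM (1713, 1748 and 1485 reads against 1506, 1680 and 1531). Its log2 fold change was 0.43 ± 0.23 (SE) and 0.11 ± 0.08 without doxycycline replicate 3, and neither passed (adjusted p = 0.326 and 0.426, edgeR). HOXB6 shares exon bases with HOXB3 and HOXB-AS3.

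Among the lower genes, HOXA13, the partner of HOXD13 in the distal limb, had 11.5, 12.0 and 12.5 FPKM with DMSO and 12.0, 8.99 and 6.79 FPKM with doxycycline (3183, 3197 and 3098 reads against 2865, 2110 and 873). Doxycycline replicate 1 was within the DMSO range and the others were below it. The log2 fold change was -0.37 ± 0.20 (SE) with all libraries and -0.20 ± 0.09 without doxycycline replicate 3 (adjusted p = 0.326 and 0.194, edgeR).

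HOXD13 had 29.5, 26.2 and 22.2 FPKM with doxycycline (3344, 2926 and 1360 reads), all below its DMSO values. Its log2 fold change was -0.26 ± 0.13 (SE), and -0.16 ± 0.07 without doxycycline replicate 3 (adjusted p = 0.326 and 0.152, edgeR).

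The other leading genes of their clusters were near their DMSO levels. HOXA5 had 50.8, 44.3 and 44.3 FPKM with doxycycline (4102, 3531 and 1930 reads) and a log2 fold change of -0.05 ± 0.11 (SE). HOXC9 had 6.26, 6.23 and 6.75 FPKM (490, 481 and 285 reads) and -0.05 ± 0.11 (SE). HOXB9 had 33.6, 33.4 and 34.9 FPKM (4079, 3995 and 2286 reads), all below DMSO, and -0.14 ± 0.09 (SE). Without doxycycline replicate 3 the estimates were -0.02 ± 0.08 (SE) for HOXA5, -0.09 ± 0.09 for HOXC9 and -0.16 ± 0.06 for HOXB9, none called. All 3 turn positive with library totals over the 6 libraries.

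**Figure D3:**
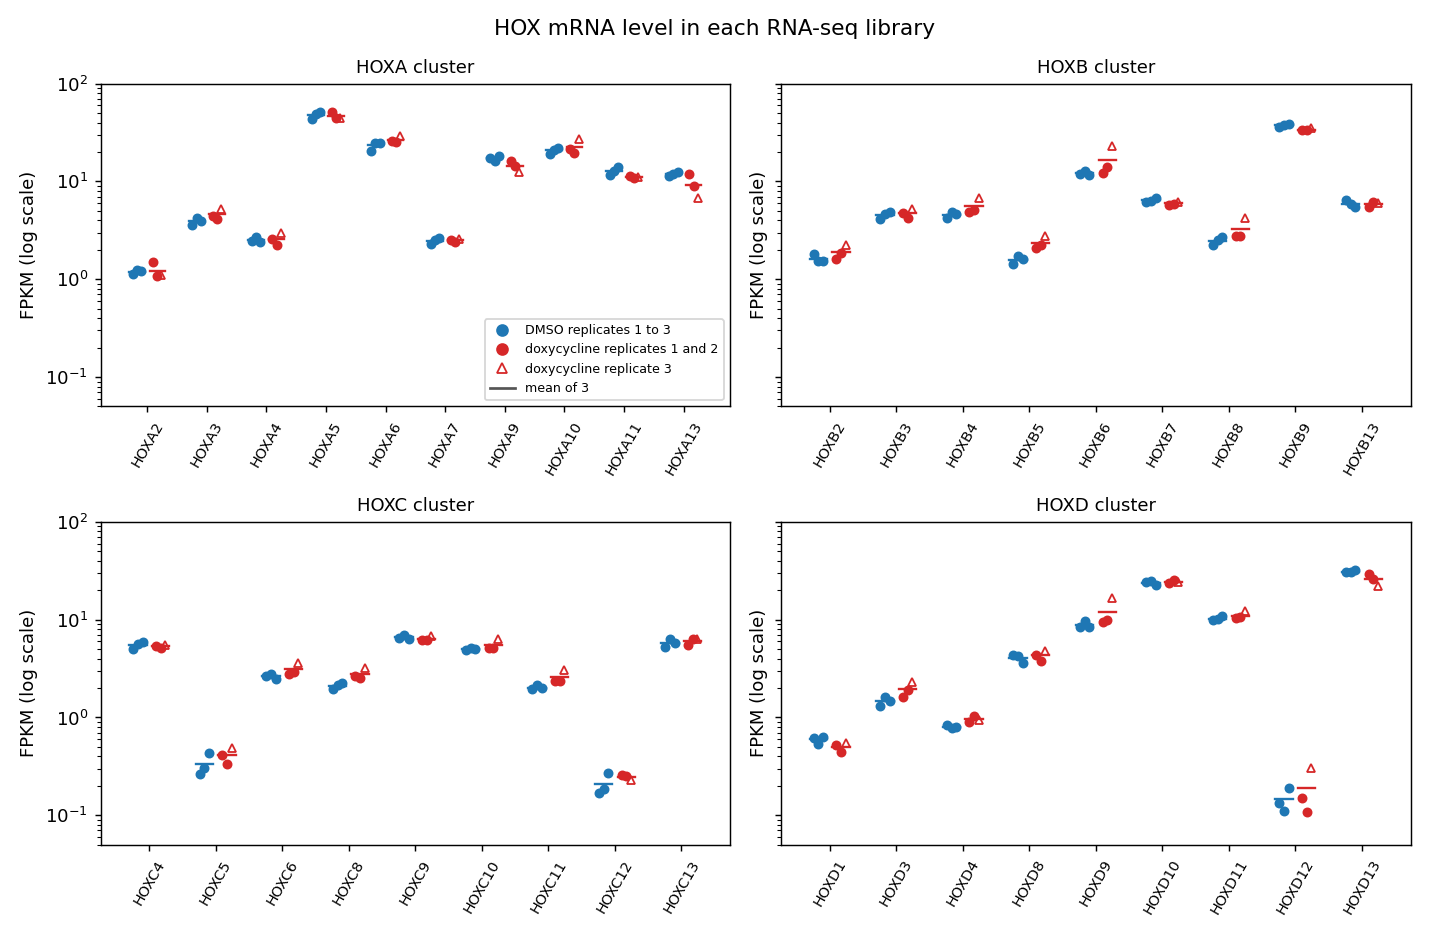
FPKM of HOX genes other than HOXB1 in each RNA-seq library, along each cluster, on a log axis; dots and triangles are libraries and lines are group means. By group mean, the leading gene of each cluster is the same in both groups. In single libraries, HOXC13 passes HOXC9 in doxycycline replicate 2 and HOXD10 passes HOXD13 in doxycycline replicate 3. The triangles of doxycycline replicate 3 stand above the other libraries for HOXB6, HOXB8 and HOXD9 and below them for HOXA13.

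The doxycycline libraries all lay above the DMSO libraries for 7 of 38 HOX genes (18.4%, against 17.7% of all genes), namely HOXC8, HOXA6, HOXB8, HOXB5, HOXC11, HOXD3 and HOXD4. They all lay below for 4 (10.5%, against 20.8% of all genes), among them HOXA11, HOXD13 and HOXB9. Without doxycycline replicate 3, 7 HOX genes were above (against 20.7% of all genes) and 7 below (against 23% of all genes), the latter with HOXD1, HOXC9 and HOXB7 added.

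Summed over a cluster, HOXA was at 145.2 ± 8.13 FPKM with doxycycline (SD, n = 3), HOXB at 80.1 ± 9.98, HOXC at 32.5 ± 2.56 and HOXD at 81.4 ± 2.32 FPKM. Each differed from its DMSO sum by less than 1 SD of the doxycycline libraries. By paralog group, group 6 was at 38.2 ± 2.75 FPKM with DMSO and 46.2 ± 8.44 FPKM with doxycycline, and group 13 at 54.8 ± 1.10 and 47.2 ± 5.62 FPKM. Of the doxycycline libraries, replicate 3 was the highest for HOXB6 and the lowest for HOXA13 and HOXD13.

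The doxycycline libraries differed in how far HOX genes were from the DMSO mean. In replicate 1 no HOX gene was more than 0.5 away on the log2 scale, in replicate 2 there was 1 (HOXB5), and in replicate 3 there were 11, of which 10 were higher. The same distance was passed by 7.68%, 11.6% and 55.8% of all genes tested in those libraries. Over HOX genes, the log2 ratio ran from -0.20 to 0.40 in replicate 1, from -0.42 to 0.52 in replicate 2 and from -0.82 to 1.07 in replicate 3. The lowest value in replicate 3 was HOXA13 and the highest was HOXD12, which had 20 reads there.

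The ratios went with base composition. Across the 38 HOX genes, Pearson's r between the log2 ratio and the GC content of the reference transcript was 0.172 in replicate 1, 0.453 in replicate 2 and 0.593 in replicate 3. Across all protein-coding genes tested it was 0.403, 0.65 and 0.793. These are correlations across genes, which share libraries and are not independent replicates. HOX transcripts ran from 43.7% GC (HOXA13) to 62.6% GC (HOXD9 and HOXD11), with a median of 55.1% against 49.1% over protein-coding transcripts. The part of base composition in the HOX changes, or in those of the gene lists below, was not tested.

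**Figure D4:**
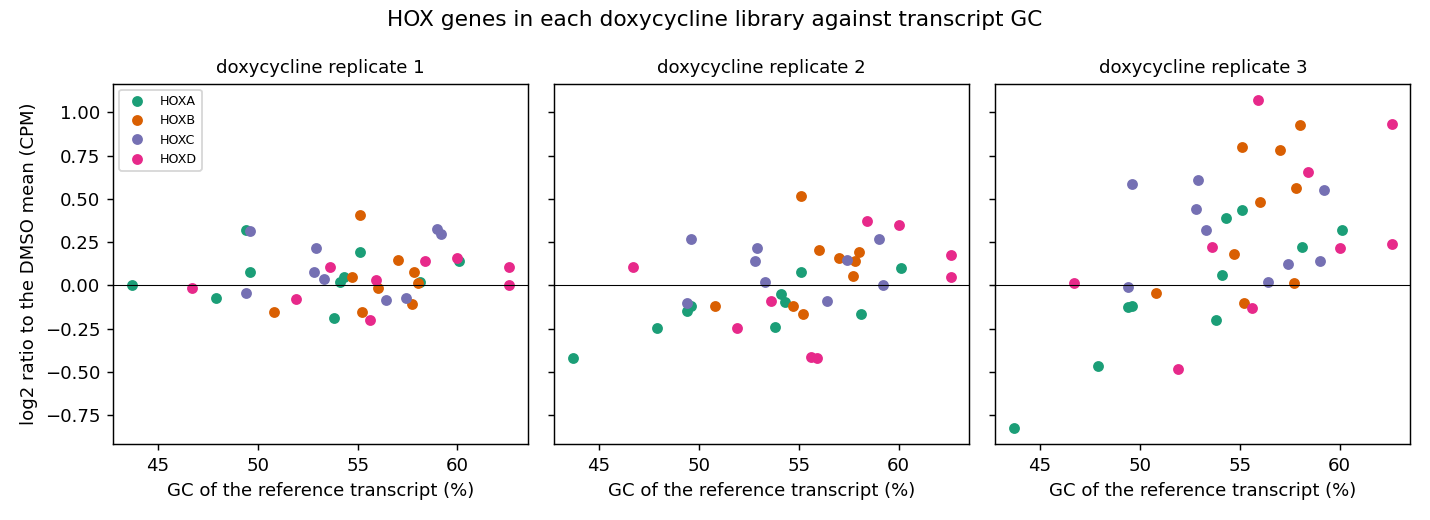
Log2 ratio of each doxycycline library to the DMSO mean for HOX genes (vertical) against the GC percent of the reference transcript (horizontal), coloured by cluster, with 1 panel per library. The spread is widest in replicate 3, where HOXA13 at 43.7% GC is lowest and HOXD9 at 62.6% GC is among the highest. HOXD11, also at 62.6% GC, is at 0.24 there, and HOXD12, the highest at 1.07, has 55.9% GC.

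Ribo-seq, which counts mRNA fragments protected by ribosomes, held nearly no HOX reads. The 39 genes had 0, 3 and 13 reads in DMSO replicates 1 to 3 and 1, 2 and 1 with doxycycline, 20 in all against 233442 in RNA-seq. Pooled over the libraries of an assay, this was 5.5 CPM, against 836 CPM in RNA-seq. HOXA11 had 7 of them, all in DMSO replicate 3, HOXD11 had 3, and 27 HOX genes had none. The 3 reads that a count of 0 allows stand for 2.99 CPM in the deepest and 14.3 CPM in the shallowest Ribo-seq library, counting error only. No HOX gene reached the 10 Ribo-seq reads needed for the test of translation efficiency (Ribo-seq relative to RNA-seq, interaction of assay and treatment in edgeR), so a change was not detectable at this depth. With no such minimum, 12 HOX genes entered, 0 were called and 1 had an unadjusted p under 0.05. Over all 11670 genes that entered, only 3 were called higher and 7 lower, and those under the unadjusted p were not counted.

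All 9 TALE cofactors were tested and 4 had a positive estimate, with a median log2 fold change of -0.11. PBX3 had the highest level, 7.30 ± 0.262 FPKM (SD, n = 3, DMSO), within the SD of PBX2 at 7.27 ± 0.66 FPKM. The log2 fold change of PBX3 was -0.16 ± 0.15 (SE), and -0.02 ± 0.07 without doxycycline replicate 3. PBX2 was the one called without doxycycline replicate 3, where it rose by 0.32 ± 0.08 (SE, log2, adjusted p = 0.0282, edgeR). With all 6 libraries its estimate was 0.49 (adjusted p = 0.326). In that leave-out fit 3.40% of all genes tested were called higher and 4.03% lower, the shares against which the calls in the lists below stand.

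Of 11 genes of PRC2, the complex that writes H3K27 methylation, 3 had a positive estimate with all libraries (median -0.22). RBBP7, a histone-binding subunit, had the highest level (47.7 FPKM) and an estimate of -0.32 ± 0.18 (SE), or -0.14 ± 0.06 without doxycycline replicate 3. MTF2, which helps recruit PRC2 to DNA, fell by 0.24 on the log2 scale without doxycycline replicate 3 (adjusted p = 0.0477, edgeR), and its call was lost there with library totals (-0.17, adjusted p = 0.119). With all 6 libraries its estimate was -0.46. Of 16 genes of PRC1, which ubiquitinates H2A and compacts chromatin, 10 had a positive estimate (median 0.18). Without doxycycline replicate 3, 3 were called higher (against 3.40% of all genes) and 3 lower (against 4.03%). CBX2 rose by 0.38 (adjusted p = 0.0081), PCGF2 by 0.34 (adjusted p = 0.0432) and CBX6, the member with the highest level (28.6 FPKM), by 0.23 (adjusted p = 0.0494) on the log2 scale. RNF2, the main ubiquitin ligase subunit, fell by 0.44 (adjusted p = 0.0107), BMI1 fell by 0.37 (adjusted p = 0.0218) and PCGF5 fell by 0.36 (adjusted p = 0.0205). None of these was called with all 6 libraries (edgeR), where the estimates were 0.58 for CBX2, 0.70 for PCGF2, 0.38 for CBX6, -0.74 for RNF2, -0.68 for BMI1 and -0.63 for PCGF5.

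Of 13 Trithorax and MLL genes, 7 had a positive estimate with all libraries (median 0.04), and 4 were called higher (against 3.40% of all genes) and 0 lower (against 4.03%) without doxycycline replicate 3 (edgeR). KDM6B, an H3K27 demethylase, rose by 0.53 (adjusted p = 0.0122), KMT2B by 0.49 (adjusted p = 0.0081), KMT2D by 0.40 (adjusted p = 0.0198) and DOT1L, the H3K79 methyltransferase, by 0.39 (adjusted p = 0.0156) on the log2 scale. With all 6 libraries their estimates were 0.85, 0.80, 0.68 and 0.66 in that order, and none was called (adjusted p = 0.326). KMT2D lost its call without that library under DESeq2's Wald test (adjusted p = 0.0752). WDR5, a shared subunit of the MLL complexes, had the highest level (27.0 FPKM) and an estimate of 0.14 ± 0.10 (SE) with all libraries and 0.14 ± 0.06 without doxycycline replicate 3. Of 9 genes of the CDX and retinoic acid list, 7 were tested and 0 called in either fit, and 6 had a positive estimate. CDX factors activate HOX genes: CDX2 had 1382, 1351 and 1172 reads with DMSO, while CDX1 had at most 1 read and CDX4 none. CRABP2, which carries retinoic acid, had the highest level, 13.3 FPKM.

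Of 24 noncoding genes in the clusters, 16 were tested and 12 had a positive estimate (median 0.20). HOTAIRM1, in HOXA, had the highest level, 7.14 ± 0.220 FPKM (SD, n = 3, DMSO), close to MIR196A1 at 6.98 ± 0.409 FPKM. The log2 fold change of HOTAIRM1 was -0.04 ± 0.11 (SE) with all libraries, which turned to 0.0018 without doxycycline replicate 3. MIR196A1, the hairpin whose mature sequence is shown above, had 27, 24 and 25 reads with DMSO and 35, 59 and 55 with doxycycline. All doxycycline libraries were above all DMSO libraries. Its log2 fold change was 1.45 ± 0.38 (SE, adjusted p = 0.326, edgeR), and 1.04 ± 0.26 (SE, adjusted p = 0.0282) without doxycycline replicate 3, where it was the one noncoding gene called. The 70-base hairpin lies within the span of HOXB7, and reads on it in these libraries do not measure the mature microRNA. MIR10A and MIR196B had 0 reads in every RNA-seq library. MIR196B shares 84 exon bases with HOXA9 on the same strand. Reads on bases shared between genes may go uncounted, so its 0 does not show absence. HOXB8, with the site shown above, was at 2.25, 2.50 and 2.69 FPKM with DMSO and 2.75, 2.77 and 4.26 FPKM with doxycycline, with a log2 fold change of 0.38 ± 0.20 (SE, adjusted p = 0.326, edgeR) and 0.15 ± 0.11 (SE) without doxycycline replicate 3.

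Of 13 genes that flank the clusters, 10 were tested and 3 had a positive estimate (median -0.15). MTX2, a mitochondrial protein gene beside HOXD, had the highest level, 23.2 ± 1.93 FPKM (SD, n = 3, DMSO). HIBADH, at 22.7 ± 0.289 FPKM, was within the SD of MTX2. The estimate of MTX2 was -0.45 ± 0.21 (SE), or -0.23 ± 0.08 without doxycycline replicate 3. SKAP2, beside HOXA, fell by 0.29 on the log2 scale without doxycycline replicate 3 (adjusted p = 0.0312, edgeR), the one flanking gene called there. The call was lost with library totals (-0.22, adjusted p = 0.0593), and with all 6 libraries the estimate was -0.53 (adjusted p = 0.326).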

How the data were processed

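RNA-seq and Ribo-seq of 12 libraries were used, grouped by the sample labels. The authors mapped reads to GRCh38 with STAR, and the labels name GRCh37 and Ensembl annotation. The deposited values are raw counts of uniquely aligned reads per gene, made by the authors without normalization. Whether counting used strand is not given in the sources used here. A deposited table of the authors' own translation efficiency ratios and p-values was not used beyond its pairing of identifiers with symbols. Entries without a gene were 69.2% to 94.1% of the count total of each RNA-seq library and 97.1% to 99.1% in Ribo-seq. They stayed out of all sizes and tests.

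Gene positions and exon lengths came from GENCODE release 44 (GRCh38), which matched 58207 of 58735 identifiers. RNA-seq counts were tested with edgeR 4.0.16 (R 4.3.3, TMM factors, quasi-likelihood F-test) over genes that had 10 reads or more in 3 libraries or more, and p-values were adjusted over all genes tested. Alternatives used DESeq2 1.42.0, other scalings, lengths and filters. The test was tried on simulated counts. Figures used matplotlib 3.10.9. Counts in every library were given for the top gene of each cluster, the members called and the 3 largest estimates in each direction, and from each list for the called members and the highest. Members and lists were chosen with earlier results of these data known. Some genes that these rules name are not reported here. HOXB8, CDX2, HIBADH and EVX2 were added after their values were seen.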

Additional observations from a re-analysis of the deposited data

How the results depend on the processing

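The count of HOX genes called with all 6 RNA-seq libraries was 0 in each direction without a filter, with library totals or DESeq2's size factors, with DESeq2's Wald test and with edgeR's likelihood ratio test. Of these, edgeR's likelihood ratio test called the most over all genes, 5 higher and 7 lower of 20552. Leaving out 1 library gave 0 to 1 HOX gene higher and 0 lower, and the 1 was HOXB5 without doxycycline replicate 3. Over these alternatives HOXB5 kept its direction, with a log2 fold change of 0.46 to 0.72 and an adjusted p of 0.0384 to 0.62. Same-numbered libraries deviated with r of 0.457, -0.444 and 0.0272. DMSO replicate 1 deviated alike with doxycycline replicates 1 (r = 0.457) and 2 (r = 0.484). These values therefore cannot tell whether the numbers pair the libraries. With the replicate block, 0 HOX genes were called with all libraries. Settings combined with leaving out doxycycline replicate 3 were chosen after seeing the data. There the replicate block called 2 of 38 HOX genes higher (HOXB5 and HOXC8) and 2 lower (HOXB9 among them). Of all genes, it called 10.4% higher and 12.8% lower. In that fit DMSO replicate 3 was alone in its block, so the treatment estimate rested on replicates 1 and 2. Library totals gave 1 HOX gene higher and 0 lower, against 7.05% and 1.66% of all genes. DESeq2's Wald test called 0 of the 31 HOX genes with an adjusted p, against 4.87% of all genes higher and 5.15% lower. It gave no adjusted p for HOXB5 (unadjusted p = 0.00799).

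The median HOX log2 fold change was 0.24 with library totals and 0.03 to 0.15 when 1 library was left out. With library totals the estimates of HOXA5 (0.0897), HOXB9 (0.0063), HOXC9 (0.0921) and HOTAIRM1 (0.0933) turned positive. With 1 library left out, HOXA5 ran from -0.1117 (without DMSO replicate 1) to 0.0127 (without DMSO replicate 3) and HOTAIRM1 from -0.0902 (without doxycycline replicate 2) to 0.0018 (without doxycycline replicate 3). Without doxycycline replicate 3, HOXA5 was also positive with the replicate block (0.0324) or library totals (0.0458), PBX3 with library totals (0.0433), and HOTAIRM1 with the block (0.0229), DESeq2 (0.0084) or library totals (0.0681). The cause of these turns was not tested.

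Cluster sums depended on length. With reference transcripts HOXA, HOXB, HOXC and HOXD summed to 177.7, 91.0, 38.5 and 93.8 FPKM, and with unshared bases to 190.7, 83.6, 34.4 and 91.7 FPKM. With library totals HOXB, HOXC and HOXD summed to 73.1, 28.9 and 77.3 FPKM. HOXA stayed highest and HOXC lowest in each. Leaving out 1 DMSO library gave 144.6 to 154 for HOXA, 76.2 to 78.0 for HOXB, 29.7 to 31.1 for HOXC and 80.5 to 81.6 for HOXD. With reference lengths HOXD10 (33.3 FPKM) passed HOXD13 in HOXD.

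No HOX gene had enough Ribo-seq reads for translation efficiency, so DESeq2's test, the replicate block and the leave-outs gave no HOX value there. Without the minimum, 0 of 12 HOX genes were called, where 3 genes were called higher and 7 lower of all 11670.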

Other observations

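The antisense gene HOXA-AS3, which shares exon bases with HOXA3, HOXA4, HOXA6 and HOXA7, had more Ribo-seq reads than all HOX genes together, with 75, 106 and 324 in DMSO replicates 1 to 3 and 200, 0 and 1 with doxycycline. Its RNA-seq reads were 157, 172 and 164 with DMSO and 149, 171 and 76 with doxycycline. Its level in RNA-seq was 0.532 ± 0.0439 FPKM (SD, n = 3) with DMSO.

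EVX2, the homeobox gene next to HOXD13, had 23, 21 and 19 RNA-seq reads with DMSO and 39, 26 and 187 with doxycycline. In Ribo-seq it had 5, 32 and 25 reads in the DMSO libraries, against 0, 1 and 1 in the doxycycline libraries. Both genes were chosen here after their values were seen, and their origin was not tested.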
